A study of Mus musculus with 23 samples.

Results

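The LIM homeodomain factors are transcription factors with paired LIM zinc-binding domains in front of a DNA-binding homeodomain, and 10 of their genes were followed here: Lhx1, Lhx2, Lhx3, Lhx4, Lhx5, Lhx6, Lhx8, Lhx9, Isl1 and Lmx1a. They were taken by name as members of 1 family, with earlier results of these data known, out of the 21938 protein-coding genes of the mouse annotation. For each gene, peaks were collected within 5 kb of the transcription start site (TSS, the 5′ end of the gene), in the gene body and in flanks of 100 kb on either side. All cells came from the cerebral cortex of embryos of the transgenic line Tg(Ebf2-EGFP)FB58Gsat, in which EGFP is driven by Ebf2 regulatory sequence, so Ebf2-EGFP- cells carried the transgene too. EGFP-positive cells were taken at 3 stages (E11.5, E13.5, E15.5), EGFP-negative cells at the first of these, and all were profiled by ChIP-seq, which sequences the DNA bound by a marked histone, for H3K27ac and H3K27me3. Per the study, Ebf2-EGFP+ cells at E11.5 were mainly Cajal-Retzius and subplate neurons, those at E15.5 mostly Cajal-Retzius cells, and Ebf2-EGFP- cells at E11.5 were mostly progenitors. The 15 ChIP libraries formed 8 groups of mark and cells, with 2 libraries in each except for H3K27ac in Ebf2-EGFP- cells, which had 1, and 8 input libraries formed 4 further groups.

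H3K27ac lies on nucleosomes of active promoters and enhancers, whereas H3K27me3 is written by Polycomb complexes on genes held silent, often those of developmental regulators in lineages that do not use them. LIM homeodomain factors bind short AT-rich sites and act in complexes built on Ldb cofactors, and combinations of them specify neuron types. Lhx1 and Lhx5 are the members known from Cajal-Retzius cells, the Reelin-secreting neurons of cortical layer 1. Lhx2 keeps the cortical primordium from becoming hem, Lmx1a marks the hem and roof plate, Lhx6 and Lhx8 belong to the medial ganglionic eminence, Lhx9 is the close relative of Lhx2 and is found in early forebrain neurons, and Lhx3, Lhx4 and Isl1 are best known from motor neurons and the pituitary.

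The sequences upstream of 4 of these genes are given to show where the marks fell. Those of Lhx1, Lhx2 and Isl1 are from the RefSeq promoter table and that of Lmx1a from the RefSeq genome, both of GRCm38.p6, the assembly of mm10, and they read 5′ to 3′ on the strand of the gene. For Lhx1, the 249 bases before the TSS (chr11:84525536-84525784, minus strand) all lay under an H3K27me3 peak of Ebf2-EGFP- cells, and capitals mark the 50 bases that also lay under H3K27ac peaks of E11.5 and of E13.5 Ebf2-EGFP+ cells. For Lmx1a, the stretch is the TSS-facing end of an H3K27me3 peak of Ebf2-EGFP- cells (chr1:167688768-167688940, plus strand), and the 94 capitals also lay under H3K27ac peaks at E13.5 and E15.5. For Lhx2, the 250 bases before the TSS (chr2:38339031-38339280, plus strand) carry capitals where the H3K27ac peaks of E11.5 and E15.5 Ebf2-EGFP+ cells coincided, 60 bases in all. For Isl1, the 249 bases before the TSS (chr13:116309690-116309938, minus strand) carry 87 capitals under the H3K27ac peak at E13.5, the sole H3K27ac peak within 5 kb of that TSS in the 4 H3K27ac lists.
Lhx1: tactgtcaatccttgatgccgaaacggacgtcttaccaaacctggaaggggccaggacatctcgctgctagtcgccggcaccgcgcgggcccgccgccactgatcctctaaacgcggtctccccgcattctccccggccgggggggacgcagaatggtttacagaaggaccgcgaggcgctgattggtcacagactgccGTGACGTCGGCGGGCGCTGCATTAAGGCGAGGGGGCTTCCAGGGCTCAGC
Lmx1a: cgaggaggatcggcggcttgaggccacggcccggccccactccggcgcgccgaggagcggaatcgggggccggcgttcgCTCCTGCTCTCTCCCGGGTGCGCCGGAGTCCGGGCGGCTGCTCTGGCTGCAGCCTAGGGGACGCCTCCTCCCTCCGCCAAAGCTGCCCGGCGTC
Lhx2: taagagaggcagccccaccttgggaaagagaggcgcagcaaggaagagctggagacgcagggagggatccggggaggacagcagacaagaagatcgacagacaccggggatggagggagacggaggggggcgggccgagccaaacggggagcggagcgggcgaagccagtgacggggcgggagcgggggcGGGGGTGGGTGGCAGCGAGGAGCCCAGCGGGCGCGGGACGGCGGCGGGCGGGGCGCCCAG
Isl1: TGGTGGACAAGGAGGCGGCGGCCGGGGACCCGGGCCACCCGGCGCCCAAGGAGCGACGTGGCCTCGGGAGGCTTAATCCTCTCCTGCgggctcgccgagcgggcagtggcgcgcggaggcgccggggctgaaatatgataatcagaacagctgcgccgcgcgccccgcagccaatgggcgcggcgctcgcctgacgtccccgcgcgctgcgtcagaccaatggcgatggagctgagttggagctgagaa
All 4 stretches were rich in G and C, at 64.7% for Lhx1, 76.3% for Lmx1a, 72.8% for Lhx2 and 71.1% for Isl1, and held 26, 23, 25 and 33 CpG dinucleotides. In RefSeq promoters of GRCm38.p6, spanning 250 bases before to 50 bases after a start, 9 of the 10 genes were matched, and Lhx5 was not. The entry nearest to the 5′ end of each gene had a median CpG observed-to-expected ratio of 0.579, from 0.241 at Lhx8 to 1.05 at Isl1, beside a median of 0.384 over 32851 promoters. The homeodomain core TAAT, counted on both strands, occurred in 5 of the 9 entries and in 58% of all promoters. The E-box CANNTG, which reads the same on both strands, occurred in 4 of 9 and in 72.3% of all. The inner letters of the Ebf site, CCCNNGGG, also the same on both strands, occurred in 1 of 9 (Lmx1a) and in 13.7% of all; matches of the 3 motifs were counted separately and could overlap.

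Only the presence, position and width of a peak could be read, because each group had a single list of peaks without heights, read numbers or replicate lists. The lists held 1386 (E11.5 Ebf2-EGFP-), 37055, 102881 and 25793 peaks (the 3 stages of Ebf2-EGFP+ cells) for H3K27ac, and 48963, 6387, 6721 and 1438 for H3K27me3 in the same order, and values given below for 3 stages follow the order E11.5, E13.5, E15.5. Sequencing depth is unknown, and list length moves with the cell group, so a difference of cells and a difference in how many peaks were called cannot be told apart. Of 7 Cajal-Retzius genes, among them Reln, Trp73 and Ebf2, 3 had an H3K27ac peak at the TSS in Ebf2-EGFP- cells. In Ebf2-EGFP+ cells 6, 7 and 5 had one at the 3 stages, where the lists reached 49.9%, 60.9% and 52.3% of all protein-coding TSS. Ebf2 and Calb2 had none at E15.5. H3K27me3 lay at 5 of the 7 in Ebf2-EGFP- cells, and at 0, 3 and 1 at the 3 Ebf2-EGFP+ stages (4.92%, 9.31% and 1.06% of all TSS). Of 6 progenitor genes, among them Sox2 and Pax6, 5, 6 and 4 had H3K27ac in Ebf2-EGFP+ cells, none had it in Ebf2-EGFP- cells, and 4 had H3K27me3 in Ebf2-EGFP- cells. Since the short Ebf2-EGFP- H3K27ac list reached 4.17% of all protein-coding TSS and the Ebf2-EGFP- H3K27me3 list 48.2%, these counts do not check the progenitor label. Of 5 pan-neuronal genes 4, 3 and 4, and of 5 genes of GABAergic neurons 3, 4 and 2, had H3K27ac in Ebf2-EGFP+ cells. Progenitor genes had H3K27ac in those cells about as often as Cajal-Retzius and pan-neuronal genes, so the counts do not check the neuronal labels either. Genes of blood vessels (3), microglia (3), meninges (3) and blood (2) had H3K27ac at 0, 1, 2 and 0 of these at E11.5, while the E13.5 list had 2, 2, 2 and 1 and the E15.5 list 0, 2, 1 and 0. The part of other cells in the results that follow was not tested.

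At the TSS, 7 of 10 genes had H3K27me3 alone in Ebf2-EGFP- cells, beside 44.7% of all protein-coding TSS. H3K27ac alone was found at 4, 9 and 7 of 10 at the 3 stages of Ebf2-EGFP+ cells, beside 46.4%, 52.5% and 51.5%. Neither mark was found at 4, 0 and 3, beside 48.7%, 38.1% and 47.4%. H3K27me3 peaks lay within 5 kb of 8 of 10 genes in Ebf2-EGFP- cells, all but Lhx3 and Lhx4, against 48.2% of all protein-coding TSS. In Ebf2-EGFP+ cells the mark was found at 2 of 10 genes at E11.5 (Lhx3 and Lhx6; 4.92% of all TSS), at 1 of 10 at E13.5 (Lhx3; 9.31%) and at none at E15.5 (1.06%). H3K27ac lay at 1 of 10 genes in Ebf2-EGFP- cells, Lhx2, against 4.17% of all TSS. It lay at 6 of 10 at E11.5 (Lhx1, Lhx2, Lhx3, Lhx5, Lhx6 and Lhx9; 49.9% of all TSS), at 10 of 10 at E13.5 (60.9%) and at 7 of 10 at E15.5 (all but Lhx3, Lhx4 and Isl1; 52.3%). The E11.5 and E15.5 counts of H3K27ac were thus near the share of all genes, and those of H3K27me3 in Ebf2-EGFP- cells and of H3K27ac at E13.5 were above it, with no test possible. Each list was also lowered to its widest peaks, as many as in the shortest list of its mark. The higher counts were then 1 of 10 (Lhx2, 2.96% of all TSS) and 0 of 10 (1.39%). Lists that short reach so few TSS that these counts cannot show whether the excess held. With peaks of at least 300 bp the same counts were 4 of 10 (16.8% of all TSS) and 7 of 10 (23%). With a window of 1 kb, H3K27me3 of Ebf2-EGFP- cells lay at 5 of 10 genes (36.2% of all TSS). H3K27ac then lay at 8 of 10 at E13.5 (44.5%) and at 4 of 10 at E15.5 (46%). Counted at any annotated transcript start, these 3 counts were 10, 10 and 9 of 10, beside 55.1%, 67.3% and 56.4% of all genes.

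**Figure D1:**
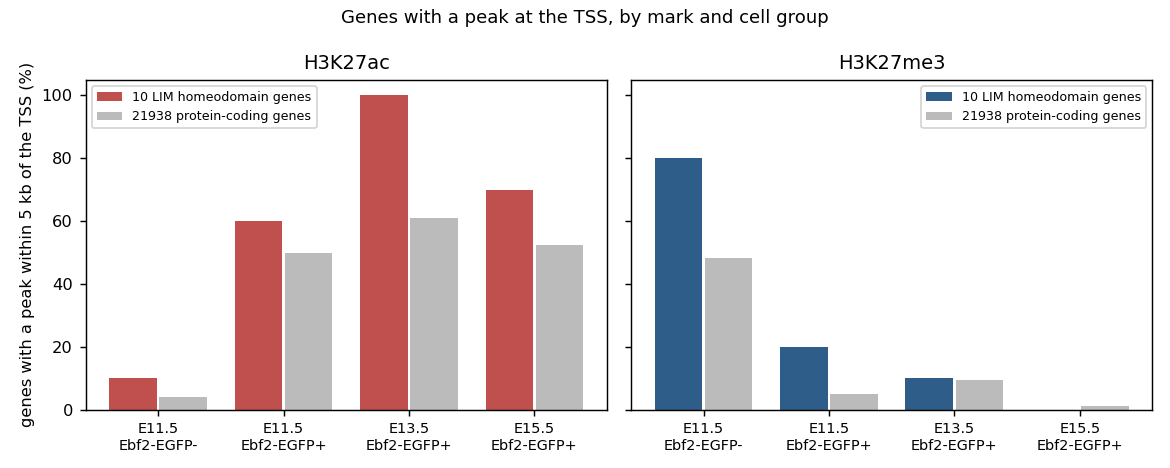
Share of genes (%, vertical axis) with a peak within 5 kb of the TSS for each mark and cell group (horizontal axis), with coloured bars for the 10 LIM homeodomain genes and grey bars for all 21938 protein-coding genes. H3K27ac at E13.5 reached 10 of 10 genes beside 60.9% of all, and H3K27me3 in Ebf2-EGFP- cells 8 of 10 beside 48.2%.

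Taken per cell group, both marks lay at the same TSS for Lhx2 in Ebf2-EGFP- cells (1 of 10; 3.42% of all TSS), for Lhx3 and Lhx6 at E11.5 (2 of 10; 3.56%), for Lhx3 at E13.5 (1 of 10; 8.39%) and for no member at E15.5 (0.752%). H3K27ac lay at the TSS at all 3 Ebf2-EGFP+ stages for 5 of 10 genes, Lhx1, Lhx2, Lhx5, Lhx6 and Lhx9, beside 33.1% of all genes. The same 5 genes also had H3K27me3 there in Ebf2-EGFP- cells, a combination found at 25.3% of all genes. With a window of 1 kb, only Lhx2 and Lhx5 had H3K27ac at all 3 stages, and both kept this H3K27me3.

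Lhx1 had small peaks at different places in the window in the 3 Ebf2-EGFP+ lists, with the TSS itself under H3K27ac in 2 of them. The gene spans chr11:84518284-84525535 on the minus strand. In E11.5 Ebf2-EGFP+ cells, 3 H3K27ac peaks of 142, 142 and 167 bp lay at 4349, 0 and -3749 bp from the TSS, where negative positions are upstream. At E13.5, 3 peaks of 312, 130 and 222 bp lay at 4979, 2673 and 0 bp. At E15.5, 1 peak of 277 bp remained in the window, at 2519 bp in an intron, and it overlapped the second of the E13.5 peaks. H3K27me3 covered the TSS in Ebf2-EGFP- cells with 1 peak of 313 bp, and in Ebf2-EGFP+ cells no stage had an H3K27me3 peak within 5 kb. A stretch of 97 bp across the TSS, of which the capitals printed for Lhx1 are the upstream side, lay under that H3K27me3 peak and both H3K27ac peaks.

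Lhx5 carried the most H3K27ac bases near its TSS of the 10 genes at each Ebf2-EGFP+ stage. The gene spans chr5:120431699-120441223 on the plus strand. H3K27ac covered 846, 1130 and 1150 bp at the 3 stages, in 4, 5 and 3 peaks, and no H3K27ac peak was found in Ebf2-EGFP- cells. As many peaks or more within 5 kb were found at 1.09%, 2.33% and 2.63% of all TSS in those 3 lists. In E11.5 cells the 4 peaks lay at -189, 261, 990 and 2927 bp. At E15.5 they had widths of 311, 513 and 326 bp and lay at -4176, -397 and 267 bp. H3K27me3 of Ebf2-EGFP- cells formed 2 peaks, 255 bp wide at -580 bp and 542 bp wide at 356 bp, on either side of the TSS. A stretch of 139 bp, at 356 bp downstream of the TSS, lay under H3K27ac at all 3 stages and under H3K27me3 of Ebf2-EGFP- cells. Like Lhx1, Lhx5 had no H3K27me3 peak within 5 kb in Ebf2-EGFP+ cells.

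**Figure D2:**
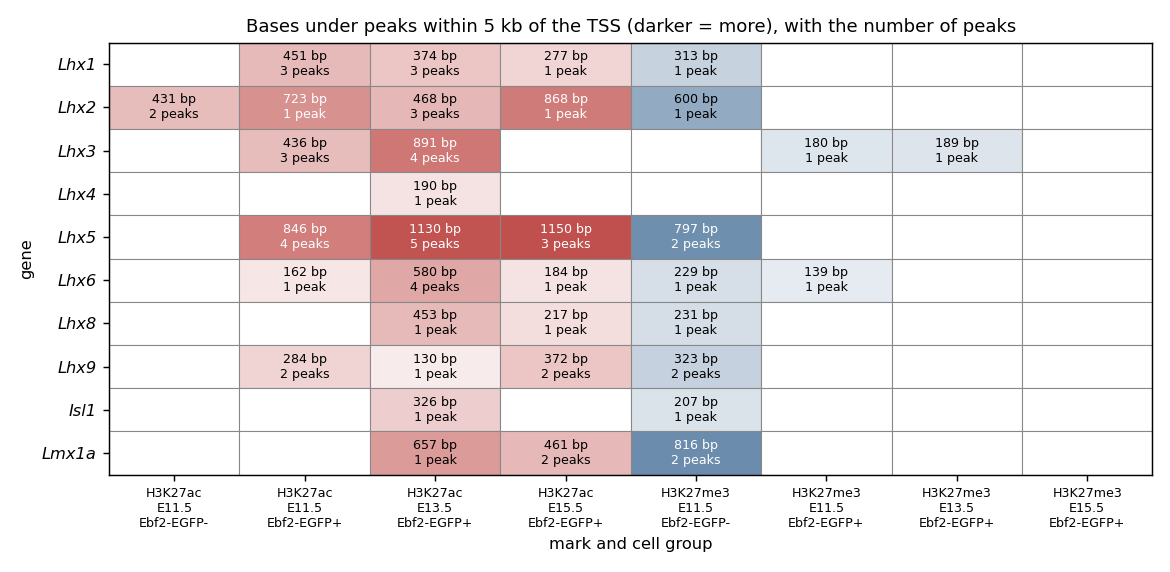
Bases under peaks within 5 kb of the TSS, with the number of peaks, for the 10 genes (rows) in the 8 lists of mark and cell group (columns); red cells are H3K27ac, blue cells H3K27me3, darker cells hold more bases and empty cells hold no peak. Lhx5 has the darkest H3K27ac cells, up to 1150 bp, and Lhx2 is the only gene with H3K27ac in Ebf2-EGFP- cells.

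Lhx2, which is required in cortical progenitors, was the only member with H3K27ac at the TSS in Ebf2-EGFP- cells, in 2 peaks of 268 and 163 bp at 33 and 432 bp. As many peaks within 5 kb were found at 0.237% of all TSS in that list. In Ebf2-EGFP+ cells the same place lay under 1 peak of 723 bp, then 3 peaks covering 468 bp, then 1 peak of 868 bp. H3K27me3 of Ebf2-EGFP- cells covered 600 bp from 28 bp onwards, so 2 stretches of 161 and 130 bp downstream of the TSS lay under 5 of the 8 lists. The widest H3K27ac peaks of all 10 loci were also at Lhx2, 1265 bp at E11.5 and 1223 bp at E15.5. Both lay about 12 kb into the gene, beside a second RefSeq start that is 12027 bp downstream of the first. Lhx9 had H3K27ac at the TSS in 2 peaks covering 284 bp, 1 covering 130 bp inside the window and 2 covering 372 bp at the 3 stages. Its H3K27me3 peaks of Ebf2-EGFP- cells, 188 and 135 bp wide, lay at -43 and -520 bp. The RefSeq start of Lhx9 is 6133 bp inside the gene, and 516 bp past that start a peak of 482 bp had H3K27ac at E11.5 and overlapped peaks of the E13.5 and E15.5 lists.

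Of the genes of the medial ganglionic eminence, Lhx6 had H3K27ac at each Ebf2-EGFP+ stage and Lhx8 from E13.5. At Lhx6, 162, 580 and 184 bp were covered at the 3 stages, in 1, 4 and 1 peaks. The E11.5 and E15.5 peaks overlapped over 156 bp, at 1388 bp in an exon. Lhx6 differed from Lhx1, Lhx5 and Lhx9 in 1 list: in E11.5 Ebf2-EGFP+ cells an H3K27me3 peak of 139 bp lay on its TSS, and the 126-bp H3K27ac peak of E13.5 lay inside it. At Lhx8, the E13.5 peak (453 bp at 2280 bp) and the E15.5 peak (217 bp at -1664 bp) did not overlap. The H3K27me3 peak of Ebf2-EGFP- cells, 231 bp at 2054 bp, shared 5 bp with the first of these.

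Among the motor neuron and pituitary factors, Lhx4 and Isl1 had few peaks within 5 kb of the TSS, and Lhx3 had more. Lhx3 had H3K27ac in 3, 4 and 0 peaks at the 3 stages, covering 436, 891 and 0 bp, and H3K27me3 both at E11.5 (180 bp at 4111 bp) and E13.5 (189 bp at 2876 bp). It was one of the 2 members without H3K27me3 at the TSS in Ebf2-EGFP- cells, and 3 other protein-coding genes (0.0182% with Lhx3 itself) had its pattern of presence over the 8 lists. That pattern depends on the window edge, however. H3K27me3 of Ebf2-EGFP- cells (5765 bp) and H3K27ac of E15.5 cells (5309 bp) lay just outside it. Both lay within 5 kb of a second RefSeq start, 1714 bp inside the gene (4051 and 3595 bp from that start). The E11.5 H3K27me3 peak lay under H3K27ac of the same cells over 180 bp. Within 5 kb, Lhx4 had 1 peak in all, 190 bp of H3K27ac at 593 bp at E13.5. Its RefSeq start lies 9657 bp inside the gene, however, and within 5 kb of that start H3K27ac lay at E13.5 and E15.5 (nearest peaks at -830 and -255 bp) and H3K27me3 in Ebf2-EGFP- and E13.5 Ebf2-EGFP+ cells (736 and 610 bp). Within 5 kb, Isl1 had 326 bp of H3K27ac at -163 bp at E13.5 and 207 bp of H3K27me3 at 4268 bp in Ebf2-EGFP- cells, and no peak in the other 6 lists. Deeper in its body, H3K27ac (179 bp at 6356 bp) and H3K27me3 (192 bp at 6335 bp) of E13.5 cells overlapped.

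Lmx1a, a gene of the hem from which some Cajal-Retzius cells arise, had no peak of either mark within 5 kb in E11.5 Ebf2-EGFP+ cells. H3K27ac covered 657 bp in 1 peak at E13.5, at -219 bp, and 461 bp in 2 peaks at E15.5, at -184 and 361 bp. H3K27me3 of Ebf2-EGFP- cells covered 816 bp in 2 peaks, the most of the 10 genes and close to the 797 bp of Lhx5. The capitals printed for Lmx1a mark where that H3K27me3 lay under both later H3K27ac peaks. Lmx1a and Lhx8 had the same pattern over the 8 lists, shared with 3.57% of protein-coding genes.

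Lhx1 and Lhx5 had the same pattern of presence at the TSS, namely H3K27me3 of Ebf2-EGFP- cells and H3K27ac of each Ebf2-EGFP+ stage alone, and Lhx9 had it too. This pattern was shared by 3785 other genes, 17.3% of the genes with Lhx1 itself counted, so presence within 5 kb did not set the Cajal-Retzius factors apart. With a window of 1 kb, Lhx1 had no H3K27ac peak at E15.5 and Lhx9 none at E13.5, so of these Lhx5 alone kept the pattern. In bases covered within 5 kb, Lhx1 and Lhx5 averaged 648, 752 and 714 bp of H3K27ac at the 3 stages, beside 201, 462 and 263 bp over the other 8 genes, and 555 beside 301 bp of H3K27me3 in Ebf2-EGFP- cells. The sets overlapped in each of these lists. Lhx1, with 451, 374 and 277 bp of H3K27ac, was below Lhx2 throughout, and Lhx5 alone was above the other 8. By the summed absolute difference in log2(bases covered + 1) over the 8 lists, the genes of the same pattern most like Lhx1 were Fbxl7, Mylip, Fam78a, Crhr1 and Gzmm, from 0.547 to 0.687. Those most like Lhx5 were Etnk1, Rnf166, Slc25a1, Iscu and Sart3, from 0.305 to 0.544.

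In gene bodies, the counts that lay farthest above the share of all genes were those of H3K27me3 in Ebf2-EGFP- cells, of H3K27ac at E13.5 and E15.5 and of H3K27me3 at E13.5. H3K27ac lay in the body of 1 of 10 genes in Ebf2-EGFP- cells (Lhx2; 4.92% of all genes), of 7 at E11.5 (56.6%), of 10 at E13.5 (68.8%) and of 9 at E15.5 (all but Isl1; 56.5%). H3K27me3 lay in the body of 10 of 10 in Ebf2-EGFP- cells (56.8%), of 3 at E11.5 (Lhx2, Lhx3 and Lhx6; 14.1%), of 4 at E13.5 (Lhx3, Lhx4, Isl1 and Lmx1a; 15.7%) and of none at E15.5 (2.97%). In flanks up to 100 kb, H3K27ac was found for 1 gene in Ebf2-EGFP- cells (Lhx3; 16.4%) and for 8, 10 and 9 genes at the 3 Ebf2-EGFP+ stages (87.8%, 97.4% and 83% of all genes). H3K27me3 was found in the flanks of 10 genes in Ebf2-EGFP- cells (92.4%) and of 6, 5 and 2 at the 3 stages of Ebf2-EGFP+ cells (49%, 50.3% and 13.7%). Lhx1 and Lhx5 had flanking H3K27me3 in both E11.5 and E13.5 Ebf2-EGFP+ cells, as had Lhx2, Lhx3 and Lhx6.

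Counted over body and flanks, the 10 loci held 4, 80, 208 and 51 H3K27ac peaks in Ebf2-EGFP- cells and the 3 stages of Ebf2-EGFP+ cells, and 90, 16, 18 and 2 H3K27me3 peaks. Peaks per 100 kb were 2.5, 2.34 and 2.29 times the genome mean for H3K27ac in the 3 Ebf2-EGFP+ lists and 2.13 times for H3K27me3 in Ebf2-EGFP- cells. Loci of genes are denser than the genome at large, however. The median H3K27ac density of the 10 loci at the 3 stages was 2.23, 7.56 and 2.01 per 100 kb, beside medians of 2.17, 5.44 and 1.71 over the loci of all protein-coding genes. For H3K27me3 it was 2.72 beside 2.58 in Ebf2-EGFP- cells, 0.645 beside 0.354 at E11.5 and 0.881 beside 0.382 at E13.5, where 7 of 10 loci were above the median of all loci. The last 2 lists rest on the 16 and 18 peaks given above.

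Lhx1 and Lhx5 together had 6.48, 12.7 and 2.4 H3K27ac peaks per 100 kb at the 3 stages, against 2.74, 8.01 and 2.12 for the other 8 genes. H3K27me3 was denser at the pair as well, at 5.52 against 3.46 per 100 kb in Ebf2-EGFP- cells. At the 3 Ebf2-EGFP+ stages it was 1.2, 1.2 and 0.24 against 0.569, 0.672 and 0.0517, from 5, 5 and 1 peaks of the pair. In H3K27ac density, Lhx1 and Lhx5 differed from each other more than the pair did from the other 8. Lhx5 held 19, 38 and 7 peaks (9.07, 18.1 and 3.34 per 100 kb), and 6.12%, 9.68% and 24.7% of all gene loci were as dense. Lhx1 held 8, 15 and 3 peaks (3.86, 7.24 and 1.45 per 100 kb), and 30.5%, 40.2% and 55.1% of loci were as dense. Lhx2, with 17, 23 and 10 peaks (7.38, 9.98 and 4.34 per 100 kb), and Lhx3, with 17, 45 and 7, exceeded Lhx1 at each stage. At some stages Lhx4, Lhx6, Lhx8 and Lhx9 were denser than Lhx1 too. Isl1, with 0, 2 and 0 peaks, had the lowest density of the 10 genes. Neighbours matter to these numbers: the Lhx5 locus holds the TSS of Sdsl, Sds, Plbd2 and Slc8b1, and 9 of the 19 peaks at E11.5 and 15 of the 38 at E13.5 were nearest to Lhx5. At Lhx1, whose locus holds the TSS of Aatf alone, 8 of 8 and 13 of 15 were nearest to Lhx1. At Lhx3, 4 of 17 and 11 of 45 were nearest to Lhx3, and at Lhx2, 10 of 17 and 17 of 23 were nearest to Lhx2.

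**Figure D3:**
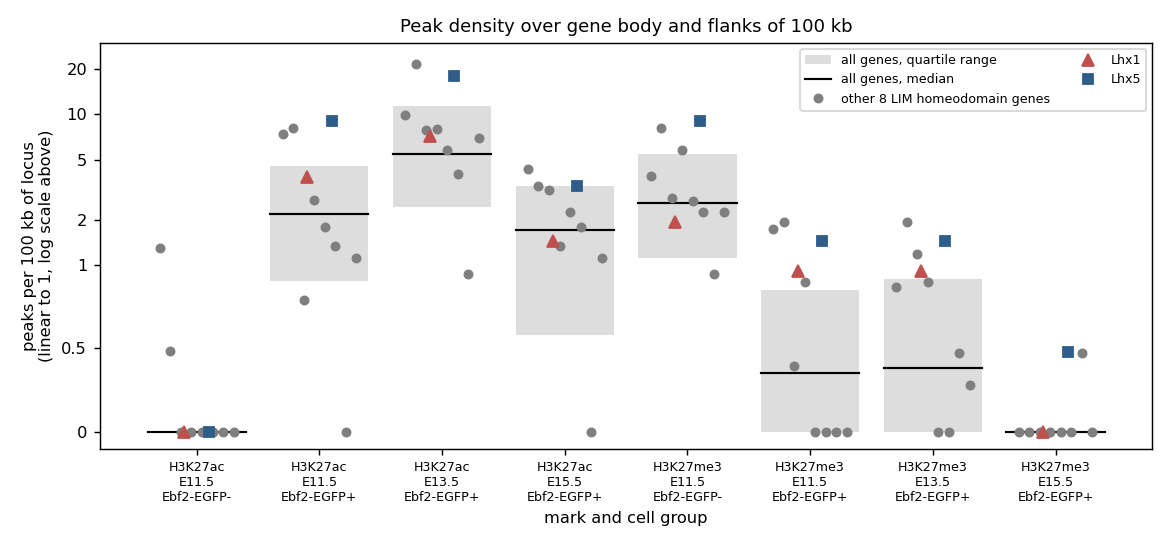
Peaks per 100 kb over gene body and 100 kb flanks (vertical axis, linear up to 1 and logarithmic above) for each mark and cell group (horizontal axis); triangles are Lhx1, squares Lhx5, grey points the other 8 genes, black lines the median and grey boxes the quartile range of all protein-coding gene loci. Lhx5 lies above the box at E11.5 and E13.5 for H3K27ac (9.07 and 18.1), while Lhx1 (3.86 and 7.24) lies within it.

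At Lhx1, distal H3K27ac was mostly upstream, in intergenic sequence. In E11.5 cells, 5 peaks of 142 to 360 bp lay between -44.9 and -95.4 kb, and at E13.5, 10 peaks of 134 to 349 bp lay between -35.1 and -97.7 kb. No upstream peak of one list overlapped an H3K27ac peak of the other. At -37.6 kb, a 164-bp H3K27me3 peak of E13.5 cells lay under both the 349-bp H3K27ac peak of the same cells and a 126-bp H3K27me3 peak of E11.5 cells. At -95.3 kb, H3K27me3 (229 bp) and H3K27ac (260 bp) of E11.5 cells overlapped. In the E15.5 list 1 distal H3K27ac peak was left upstream, 225 bp wide at -24.2 kb.

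At Lhx5, 2 sites had H3K27ac at all 3 stages. One was the TSS site at 261 bp, and the other lay 27.8 kb downstream at Sdsl, where peaks of 292, 188 and 360 bp at the 3 stages overlapped. Upstream, 3 H3K27ac peaks beyond 50 kb at E11.5 (-50.7, -73.2 and -95.6 kb) were absent from the E13.5 list, which had others, among them a 198-bp peak at -68 kb that overlapped H3K27me3 of the same cells. In the E15.5 H3K27ac list the farthest upstream peak of Lhx5 was the one near -4.18 kb. H3K27me3 of Ebf2-EGFP- cells was dense downstream, with 14 of 19 peaks in that flank.

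**Figure D4:**
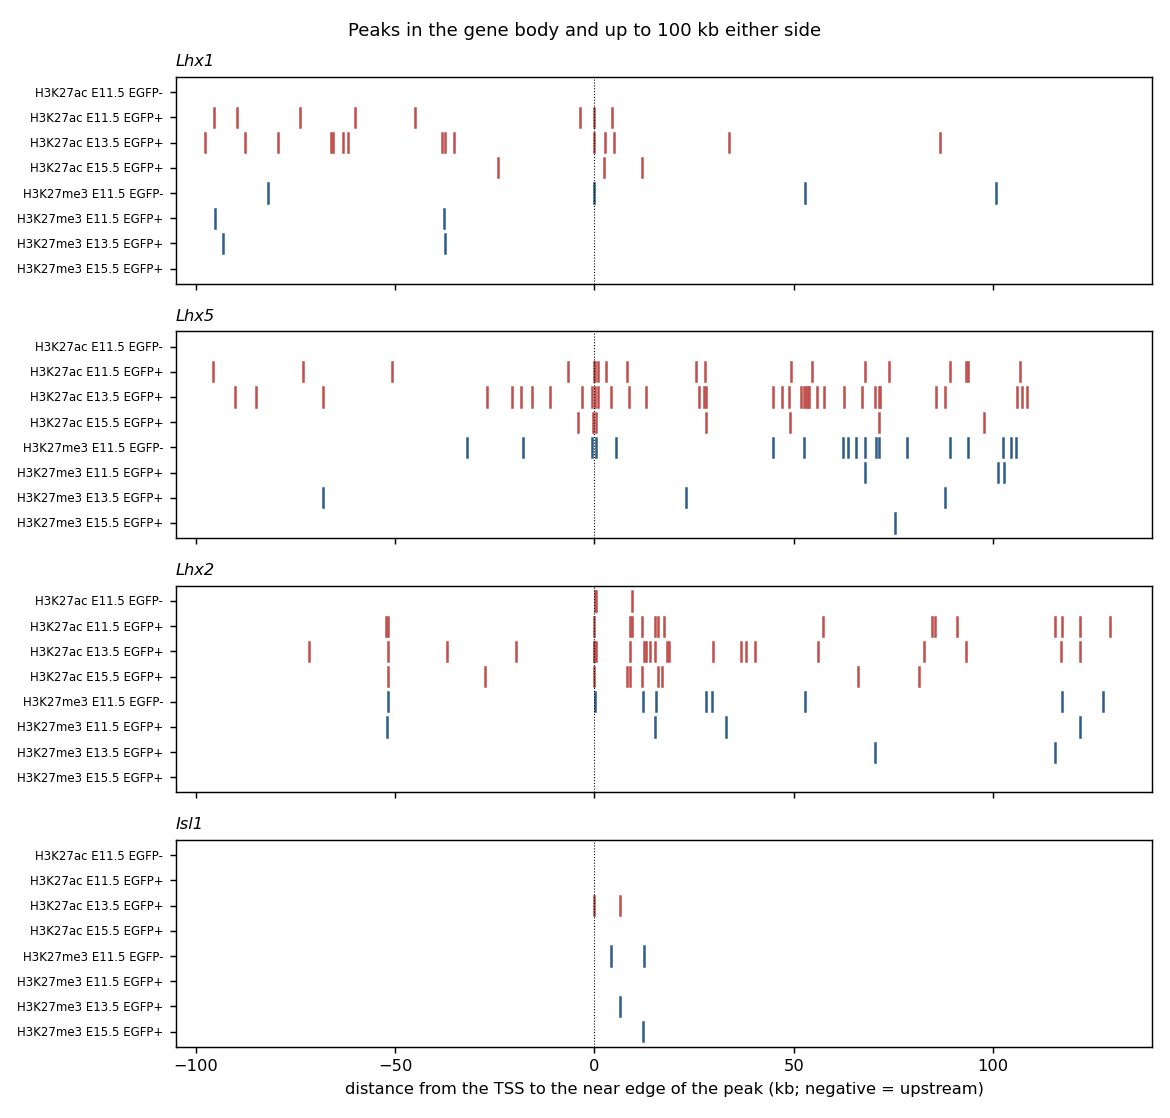
Peaks of Lhx1, Lhx5, Lhx2 and Isl1 by distance from the TSS (horizontal axis, kb, negative upstream; dotted line at the TSS), with 1 row per mark and cell group, red ticks for H3K27ac and blue ticks for H3K27me3; each tick stands at the peak edge nearest to the TSS. Lhx5 shows the most ticks of the 4 genes at E13.5 (38 H3K27ac peaks), many of them downstream at neighbouring genes, and Isl1 the fewest (2).

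For all E11.5 H3K27ac peaks of the loci, the share found again at later stages was near or below that of the whole list. For those more than 5 kb from any TSS, it was below that list for E13.5 and above it for E15.5, there on 8 peaks. Over the 10 loci, TSS sites included, 26 of 80 E11.5 H3K27ac peaks (32.5%, 95% exact Clopper-Pearson interval 22.4% to 43.9%) overlapped an E13.5 peak, beside 36.7% of the whole E11.5 list. Those overlapping an E15.5 peak were 17 of 80 (21.2%, 12.9% to 31.8%), beside 27.5%. The intervals cover counting error only, with each peak taken as independent. Peaks overlapping both later stages numbered 11 (13.8%, beside 16.1%), of which 5 were at Lhx2, 2 each at Lhx3 and Lhx5, and 1 each at Lhx6 and Lhx9. At Lhx2, 3 of the 5 were at its TSS, 8.85 kb and 12 kb, and the others were the promoter of Dennd1a. The Lhx3 sites were nearest to Nacc2 and Qsox2, and the Lhx6 site was the promoter of Ndufa8. The Lhx9 site was the one beside its RefSeq start. Lhx1 had none. Of the 57 E11.5 peaks more than 5 kb from any protein-coding TSS, 15 overlapped an E13.5 peak (26.3%, beside 30.2% of such peaks in the whole list), 8 an E15.5 peak (14%, beside 8.98%) and 5 both (8.77%, beside 5.27%).

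Of the 90 H3K27me3 peaks of Ebf2-EGFP- cells in the loci, 40 (44.4%) overlapped H3K27ac of Ebf2-EGFP+ cells of at least 1 stage, beside 49.1% of the whole list. By stage, 20%, 33.3% and 16.7% overlapped H3K27ac, beside 21.7%, 37.7% and 18.4% of the whole list. Of the 40, 10 were in the locus of Lhx5 (of 19 such peaks there), 7 at Lhx3 (of 17), 6 at Lhx2 (of 9) and 1 at Lhx1 (of 4). Most of those at Lhx5 and all of those at Lhx3 were nearest to the TSS of a neighbouring gene. Both marks within Ebf2-EGFP+ cells were seen at 7 of 16 H3K27me3 peaks at E11.5 (43.8%, 19.8% to 70.1%), beside 21.2% of the whole list. At E13.5 they were seen at 8 of 18 (44.4%, 21.5% to 69.2%), beside 38.4%. Of the 7 peaks at E11.5, 3 were in the locus of Lhx2 and 2 in that of Lhx3. The Lhx2 peaks at -52.1 and 122 kb were nearest to Dennd1a and Nek6, and the Lhx3 peak at 93.3 kb to Nacc2. Peaks of the same locus are not independent, so the intervals do not judge a difference from the whole list. Sorted cells of a group can be mixed, and whether both marks lay in the same cells was not tested.

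The partners of the LIM homeodomain factors were marked as follows. Of 12 genes, the relatives Isl2 and Lmx1b, the adaptors Ldb1 and Ldb2, the LIM-only competitors Lmo1 to Lmo4, the Ldb-stabilising Ssbp2 to Ssbp4 and the ubiquitin ligase Rlim, H3K27ac lay at the TSS of 1 in Ebf2-EGFP- cells (Ldb1; 4.17% of all TSS) and of 7, 11 and 9 at the 3 stages (49.9%, 60.9% and 52.3%). Ldb1, the adaptor that the factors bind through their LIM domains, had H3K27ac in all 4 cell groups, with a widest peak of 167 bp in Ebf2-EGFP- cells and of 307, 350 and 1189 bp at the 3 stages. Ssbp3 had the widest peaks of the 12 at E11.5 and E15.5, 1545 and 1907 bp, wider than any TSS peak of the 10 factors. H3K27me3 of Ebf2-EGFP- cells lay at 10 of 12 (48.2% of all TSS), and in Ebf2-EGFP+ cells at Ssbp3 at E11.5, at Lmx1b and Ssbp4 at E13.5 and at none at E15.5. Lmx1b, the relative of Lmx1a, had 0, 3 and 1 H3K27ac peaks at the 3 stages.

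Peaks of at least 300 bp lay at the TSS of 1, 7 and 2 of the 10 genes for H3K27ac at the 3 stages, beside 28.9%, 23% and 42.6% of all TSS, and at 4 for H3K27me3 of Ebf2-EGFP- cells, beside 16.8%. Over the whole loci, with peaks near neighbouring genes included, median widths were 218, 177 and 278 bp in the 3 Ebf2-EGFP+ H3K27ac lists. These were close to the 212, 183 and 283 bp of the whole lists.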

How the data were processed

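ChIP-seq of H3K27ac and H3K27me3 was done by the authors on sorted cortical cells, with reads aligned to mm10 by Bowtie 1.1.2 (version from the submitters' processing notes; up to 3 mismatches) and peaks called by MACS at a p cutoff of 1e-05. The MACS version, the use of input and the handling of replicates are not given in the sources used here. Each of the 8 deposited lists held intervals and a score, and that score was 0 in every row, so it carried no height. Depth is unknown and no test between groups could be made. Starts were read as counted from 0 and are printed counted from 1.

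Genes were taken from GENCODE M21 (GRCm38, chromosomes 1 to 19, X and Y) and matched by symbol; a peak was counted where at least 1 bp overlapped a window. Promoter, exon, intron and intergenic classes were read at the peak centre, with promoters within 1 kb of a protein-coding TSS. Python 3.11.15 with numpy 2.4.6 was used, and the counting was checked on simulated peaks. Counts of genes with a TSS peak were recomputed with a TSS window of 1 kb, any transcript start, a minimum peak width of 300 bp and equal-length lists of the widest peaks. Locus densities over the genome were recomputed with flanks of 50 kb, the same width minimum and equal-length lists, peaks within 1 kb merged, and without peaks within 5 kb of another TSS. Other values were computed in 1 way. Named genes were the 10 members, partner and marker lists, and the 5 genes most like Lhx1 and Lhx5. The members and lists were chosen with earlier results of these data known. Input libraries had no file used here.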

Additional observations from a re-analysis of the deposited data

How the results depend on the processing

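Of 72 recomputed values, 44 stayed within 1.5 times the reported value and 28 did not; no test was involved, and the cause was not tested. Counts of the 10 genes with a TSS peak changed as follows, with the share of all genes under the same setting in brackets. Within 1 kb, 4 had H3K27ac at E15.5 (46%). H3K27me3 within 1 kb lay at 5 in Ebf2-EGFP- cells (36.2%), 1 at E11.5 in Ebf2-EGFP+ cells (1.89%) and 0 at E13.5 (5.34%). At any annotated transcript start, 3 had H3K27me3 at E13.5 (13.1%). With peaks of at least 300 bp, 0, 1 and 2 had H3K27ac in Ebf2-EGFP-, E11.5 and E15.5 cells (1.21%, 28.9% and 42.6%). At that width 4, 0 and 0 had H3K27me3 in Ebf2-EGFP-, E11.5 and E13.5 cells (16.8%, 0.242% and 0.62%). With the widest peaks in lists of equal length, 1, 0 and 0 had H3K27ac at the 3 stages of Ebf2-EGFP+ cells (6.25%, 1.39% and 6.87%). In those lists 1, 0 and 0 had H3K27me3 in Ebf2-EGFP-, E11.5 and E13.5 cells (2.96%, 1.33% and 2.67%). In the lists limited by width, Lhx2 was the gene left wherever 1 was kept. The gene with H3K27me3 within 1 kb at E11.5 in Ebf2-EGFP+ cells was Lhx6. Densities relative to the genome changed as follows. With peaks of at least 300 bp they were 0 for H3K27ac of Ebf2-EGFP- cells and 0 for H3K27me3 at each of the 3 stages of Ebf2-EGFP+ cells. With the widest peaks they were 0 and 0.836 for H3K27ac at E13.5 and E15.5 and 1.62 for H3K27me3 at E13.5. With 50 kb flanks H3K27me3 at E11.5 was 1.9. Without peaks near another TSS they were 9.42 and 3.44 for H3K27ac of Ebf2-EGFP- and E15.5 cells and 1.05 for H3K27me3 at E15.5, which rests on 2 peaks. No paired analysis was possible because each group had 1 peak list and no result came from a test; for the same reason no replicate could be left out. List length and unknown depth limit what an absent peak means.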
